A study of Mus musculus with 4 samples.

Results

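Keratins, claudins and the desmosomal cadherins are gene families whose products give epithelial cells their filaments and their junctions. Here they were taken as all genes with a probe set of a single symbol of the form Krt, Cldn, Dsc or Dsg followed by a number, which gave 70 of the 18193 genes that the array names. These were 44 keratins, 20 claudins, 3 desmocollins and 3 desmogleins. They were read by 99 probe sets, groups of short oligonucleotides that each aim at 1 transcript. Some, such as those with names in _x_at or _s_at, can also match other transcripts. Each gene was represented by its probe set with the highest mean over the 4 arrays. The symbols set which genes entered, and the values set only which probe set stood for a gene. Krt6a and Krt6b, whose symbols end in a letter, fell outside the choice.

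The cells were mouse mammary epithelial cells (MECs) that lack Deaf-1, a transcription factor, and that had been immortalised with a retrovirus encoding the E6/E7 proteins of HPV16. From them 2 clones, E1 and C1, were transduced with a retrovirus encoding Deaf-1 or with the empty retrovirus, and RNA was taken after 48 hours of selection in puromycin. The arrays were therefore E1 with Deaf-1, E1 control, C1 with Deaf-1 and C1 control, with 1 array each, and all 4 shared the null genotype and the viral oncoproteins. The source of the cells is described as 1 mouse in the results of the paper and as mice in its methods, so the clones may not stand for separate animals. Values are log2 expression after RMA, which removes background signal, gives all arrays 1 distribution of values and sums up the oligonucleotides of each probe set. How bright a probe set is also depends on its oligonucleotides, so different genes were not ranked by level. The Deaf1 probe set read 6.25 in E1 with Deaf-1, against 4.91 in the E1 control (2.53-fold), and 6.73 in C1 with Deaf-1, against 5.01 in the C1 control (3.29-fold), so both labelled Deaf-1 arrays were above their controls. The controls, labelled as lacking Deaf-1, thus read above the background level of 3.83 used below, and whether this probe set lies in the deleted part of the gene was not examined.

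Keratins are intermediate filament proteins that polymerise only as pairs of a type I and a type II chain. Krt8 and Krt18 form the pair of simple and luminal epithelium, to which Krt7 and Krt19 are often added, whereas Krt5 and Krt14 form the pair of basal and myoepithelial cells, with Krt17 and Krt15. Claudins are the membrane proteins that build the strands of tight junctions. Desmocollins and desmogleins are the cadherins that join neighbouring cells at desmosomes, where plakoglobin, plakophilins and desmoplakin tie them to keratin filaments. In the mammary gland these genes separate the luminal and the basal layer of the duct.

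Most of these genes were not measured above background in either clone. The background was set from the 44 probe sets of olfactory receptor genes, which mammary cells are not known to use, as the 95th percentile of their means, which was 3.83. On single arrays that percentile was 3.88 in E1 with Deaf-1, 3.59 in the E1 control, 3.73 in C1 with Deaf-1 and 4.06 in the C1 control. The level of 3.83 was nevertheless used for every array, so calls close to it depend on this choice. By this measure 20 of the 70 genes had a mean above background (28.6%), against 11730 of all 18193 genes (64.5%). Of the families, 13 of 44 keratins and 7 of 20 claudins passed, and none of the 3 desmocollins and 3 desmogleins did. On all 4 arrays 16 genes lay above the level, on some arrays 9, and on no array 45 (64.3%, against 31.1% of all genes). Beside the chosen probe sets, 29 further probe sets read 18 of these genes, and 24 of the 29 stayed at or below the level on every array. In bulk RNA, fewer cells of a type and less RNA per cell cannot be told apart.

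**Figure D1:**
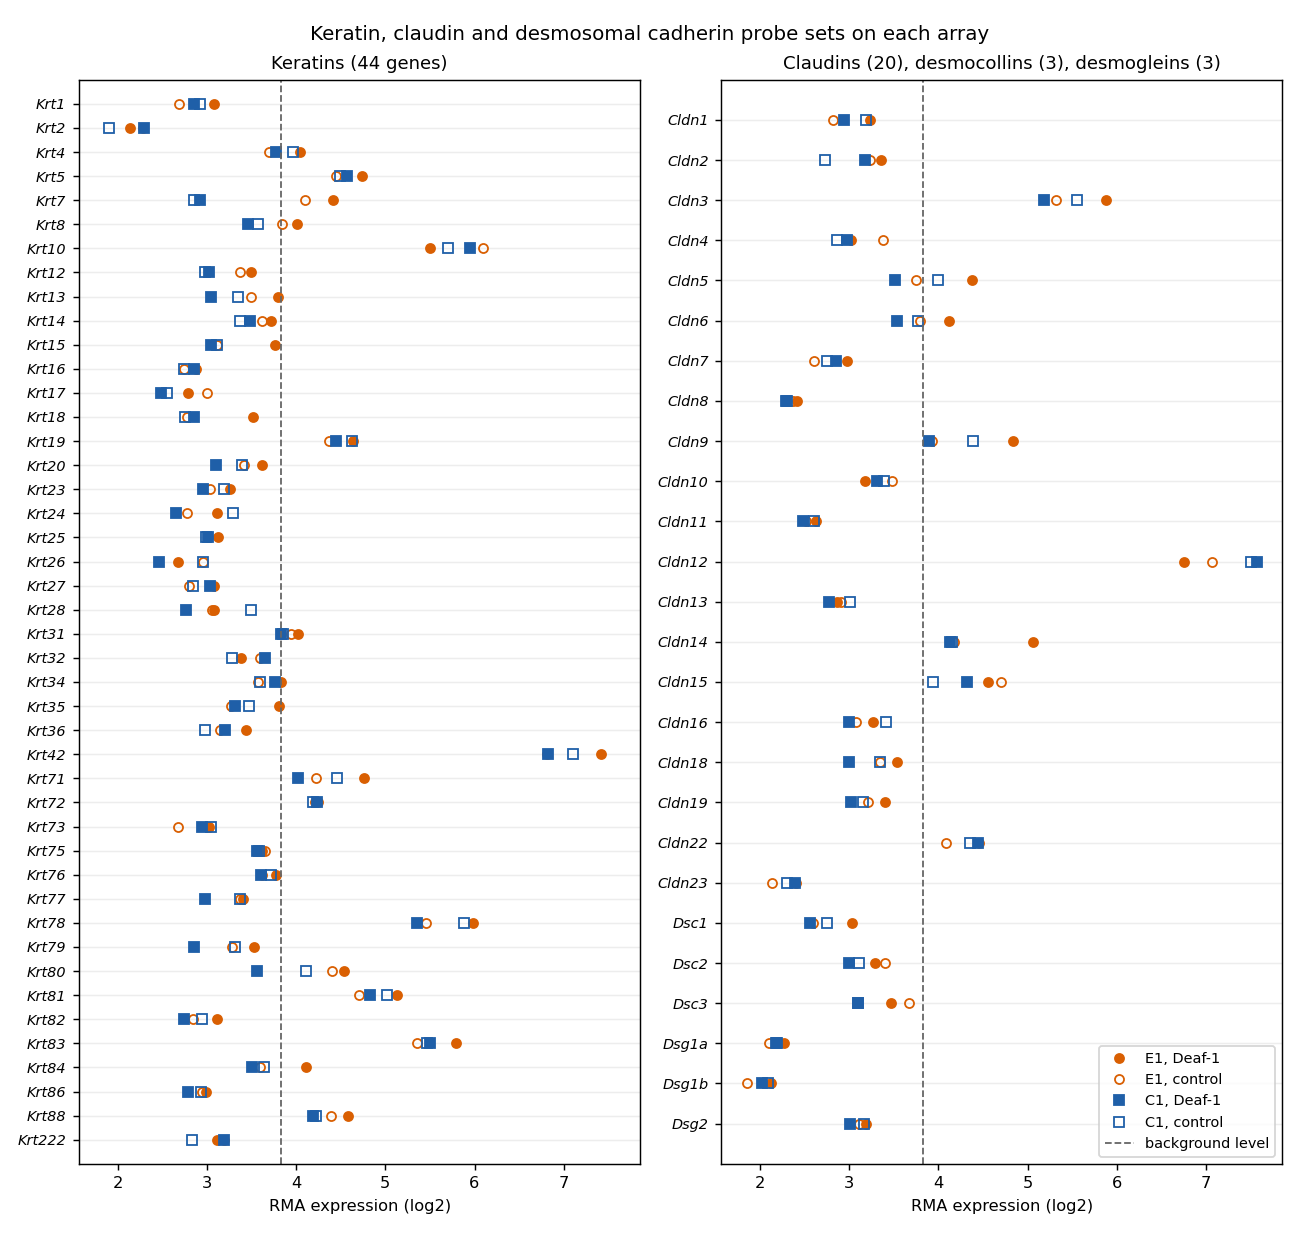
Log2 RMA expression of the 70 genes on each of the 4 arrays (orange circles, clone E1; blue squares, clone C1; filled, Deaf-1; open, control), with a dashed line at the background level of 3.83. Most points lie left of the line, Cldn12 and Krt42 lie farthest to its right, and Krt7 and, by less, Krt8 have both E1 arrays right of the line and both C1 arrays left of it.

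The keratin pair of luminal cells was at or near background. Krt8 read 4.01 in E1 with Deaf-1 and 3.84 in the E1 control, and 3.46 in C1 with Deaf-1 and 3.57 in the C1 control. Its partner Krt18 read 3.51, against 2.77 in the control, in E1, and 2.86, against 2.75 in the control, in C1. Krt8 thus lay just above the level on the E1 arrays alone and Krt18 below it on all 4. The other 2 probe sets of Krt8 were below the level on every array, with means of 2.80 and 3.45. Krt19, a type I keratin of luminal cells, was above background on all 4 arrays, at 4.64 with Deaf-1 and 4.37 in the control of clone E1, and at 4.45 with Deaf-1 and 4.62 in the control of clone C1.

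The basal keratins were likewise low. Krt5 was above background on every array, at 4.74 with Deaf-1 and 4.45 in the control of clone E1, and at 4.57 with Deaf-1 and 4.49 in the control of clone C1. Krt14, the type I partner of Krt5, was below it on every array, at 3.72 with Deaf-1 and 3.61 in the control of E1, and at 3.48 with Deaf-1 and 3.37 in the control of C1. Of this pair the type II member was thus above background and the type I member was not. By the percentile of the E1 control array alone, however, Krt14 passed there (3.61 against 3.59). Krt15 (3.76 with Deaf-1 and 3.11 in the control of E1, and 3.05 with Deaf-1 and 3.11 in the control of C1) and Krt16, a keratin of activated epidermis (2.74 to 2.87), did not reach the level either. Krt17 had 2.79 with Deaf-1 and 3.0 in the control of E1, and 2.48 with Deaf-1 and 2.55 in the control of C1. A further probe set shared by Krt17 and Krt14 was not assigned to either. Outside the choice, Krt6a, a keratin of hair follicles and wounded skin, read 5.65 with Deaf-1 and 5.38 in the control of E1, and 5.27 with Deaf-1 and 5.67 in the control of C1, whereas Krt6b stayed between 2.71 and 3.08.

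Several of the keratins above background are known from the epidermis, the nail or the hair rather than the mammary duct. Krt42, a type I keratin known from the mouse nail, read 7.42 with Deaf-1 and 6.81 in the control of clone E1, and 6.83 with Deaf-1 and 7.11 in the control of clone C1. Its second probe set lay between 3.96 and 4.33, so the 2 probe sets of this gene did not read alike. The brighter one has a name in _x_at. Krt10, the type I keratin of suprabasal epidermis, read 5.50 with Deaf-1 and 6.09 in the control of E1, and 5.95 with Deaf-1 and 5.70 in the control of C1. Krt1, the type II partner of Krt10, was below background at 2.68 to 3.08. Krt78, a type II keratin, read 5.99 with Deaf-1 and 5.46 in the control of E1, and 5.35 with Deaf-1 and 5.88 in the control of C1.

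Hair and root sheath keratins were above background in part. The type II hair keratins Krt83 (5.36 to 5.79 over the 4 arrays) and Krt81 (4.70 to 5.13) were above background on every array, as were Krt71 (4.02 to 4.76) and Krt72 (4.18 to 4.24) of the inner root sheath, and Krt88 (4.19 to 4.58). Others of the same kinds were below it on every array. Among these were the hair keratins Krt82 (2.74 to 3.11) and Krt86 (2.79 to 2.99) and, of the follicle, Krt73 (2.68 to 3.04) and Krt75 (3.56 to 3.65). So were the type I hair keratins Krt32, Krt35 and Krt36 (means of 3.47, 3.46 and 3.19). The type I root sheath keratins Krt25, Krt26, Krt27 and Krt28 (means of 3.03, 2.76, 2.94 and 3.10) were below it on every array too. Krt80, a type II keratin, was above background on both E1 arrays and the C1 control but at 3.56 in C1 with Deaf-1. The type I hair keratin Krt31 lay at the level, with 4.02 and 3.94 in E1 and 3.83 and 3.85 in C1 for Deaf-1 and control, and Krt4, of stratified epithelia that do not cornify, between 3.70 and 4.04. Krt84 and Krt34 passed it on the array of E1 with Deaf-1 alone, at 4.11 and 3.83. Hence 10 keratins were above background on all 4 arrays, 7 on some, and 27 on none.

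Among claudins, Cldn12 was above background on every array with both of its probe sets. Cldn12, a claudin without the PDZ-binding end found on most others, read 6.75 with Deaf-1 and 7.07 in the control of clone E1, and 7.57 with Deaf-1 and 7.51 in the control of clone C1. The second probe set read 6.11 with Deaf-1 and 6.54 in the control of E1, and 7.11 with Deaf-1 and 7.02 in the control of C1. In both probe sets the 2 E1 arrays lay below the 2 C1 arrays. Cldn3, a claudin of many tight epithelia, read 5.88 with Deaf-1 and 5.32 in the control of E1, and 5.19 with Deaf-1 and 5.56 in the control of C1, while its other 3 probe sets had means of 3.68, 3.97 and 4.00. The brighter probe set of Cldn3 was thus not matched by the others.

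The remaining claudins above background were close to it. Cldn14, known from the inner ear, kidney and liver, read 5.07 in E1 with Deaf-1 and 4.17 in the E1 control, and 4.13 and 4.16 in C1 with Deaf-1 and control. Cldn15, which forms cation pores in the gut, read 4.55 with Deaf-1 and 4.70 in the control of E1, and 4.33 with Deaf-1 and 3.93 in the control of C1. Cldn22 lay between 4.08 and 4.46 and Cldn9 between 3.89 and 4.84. Cldn5, the claudin of endothelium, was above the level on 2 arrays (4.37 in E1 with Deaf-1 and 4.00 in the C1 control) and Cldn6, of embryonic epithelium, on 1 (4.12 in E1 with Deaf-1). Other claudins known from mammary epithelium were below background on every array: Cldn1 at 2.82 to 3.24, Cldn4 at 2.86 to 3.37, Cldn7 at 2.61 to 2.97 and Cldn8 at 2.29 to 2.42. The 3 further probe sets of Cldn1 had means of 2.00, 2.06 and 2.44.

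None of the desmosomal cadherins was above background. Dsg2, the desmoglein of simple epithelia, read 3.18 with Deaf-1 and 3.11 in the control of clone E1, and 3.01 with Deaf-1 and 3.16 in the control of clone C1, and its other 5 probe sets had means between 2.46 and 2.64. Dsc2, the widely expressed desmocollin, read 3.29 with Deaf-1 and 3.40 in the control of E1, and 3.0 with Deaf-1 and 3.11 in the control of C1. Dsc3, of basal layers, read 3.47 with Deaf-1 and 3.68 in the control of E1, and 3.10 with Deaf-1 and 3.10 in the control of C1. All of these lay below 3.83 on all 4 arrays. The epidermal cadherins Dsc1 (2.56 to 3.03), Dsg1a (2.10 to 2.27) and Dsg1b (1.85 to 2.13) were below it too.

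Genes for proteins that act with these families were read against the share of all genes above background, 64.5%. Of 9 desmosomal plaque genes 7 had means above background, among them Jup, plakoglobin, at 6.15 with Deaf-1 and 6.22 in the control of E1, and at 5.88 with Deaf-1 and 6.12 in the control of C1. Desmoplakin, Dsp, which anchors the keratin filaments, was below it at 2.40 to 2.97. Of 19 partners in the tight junction 13 passed, with the scaffold Tjp1 at 7.41 to 8.03, whereas occludin, Ocln, stayed at 2.66 to 3.06. Of 12 cornified envelope genes 3 passed and of 8 hemidesmosome genes 5. These counts are descriptions, with no test.

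Against the label of mammary epithelial cells, defining markers were mixed. For each list here, the share to set beside its count is the 64.5% of all genes with a mean above background. Of 16 measured epithelial genes 9 had means above background. Beside Epcam these were Cd24a (7.48), Crb3 (5.38), Grhl2 (4.85), St14 (4.55), Elf3 (4.55), Rab25 (4.19), Spint2 (4.18) and Spint1 (3.90). E-cadherin, Cdh1, read 2.42 with Deaf-1 and 2.34 in the control of E1, and 2.28 with Deaf-1 and 2.22 in the control of C1. It was below the level throughout, as were Esrp1, Grhl1, Ovol1, Ovol2, Ehf and Prss8. Epcam had 1 probe set between 5.81 and 6.33 and another between 3.35 and 3.86. The luminal list passed with 5 of 16, namely Krt19, Cd14, Aldh1a3 and the hormone receptors Pgr (4.63 to 7.50) and Esr1 (4.42 to 5.74). The basal and myoepithelial list passed with 11 of 19 and held the smooth muscle gene Acta2 at 11.46 to 11.84. By contrast 19 of 20 fibroblast and mesenchymal genes were above background, with list means of 9.61, 9.60, 9.66 and 9.62 on the arrays of E1 with Deaf-1, E1 control, C1 with Deaf-1 and C1 control, and only Tcf21 was below it. Vimentin, Vim, the intermediate filament protein of mesenchymal cells, read 12.79 with Deaf-1 and 12.82 in the control of E1, and 12.13 with Deaf-1 and 12.24 in the control of C1. Of endothelial genes 3 of 8 passed, with Tek at 6.38 to 7.29, Kdr at 4.20 to 4.24 and Cldn5, while Pecam1, Cdh5, Tie1, Emcn and Vwf were below the level on all 4 arrays. Of leukocyte genes 2 of 7 passed, Csf1r at 5.81 to 6.30 and Cd3e at 4.32 to 4.71, while Ptprc and the other 4 were below it on all arrays. The adipocyte list passed with 2 of 5, both through clone E1. Fabp4, a fatty acid binding protein of fat cells, read 10.56 with Deaf-1 and 10.59 in the control of E1, and 3.77 with Deaf-1 and 2.57 in the control of C1. Pparg, a regulator of fat cell differentiation, read 6.53 with Deaf-1 and 6.62 in the control of E1, and 2.95 with Deaf-1 and 3.16 in the control of C1, while Adipoq, Lep and Cidec were below the level on every array. The part of cells other than epithelium in the low levels of keratins, claudins and desmosomal cadherins was not tested.

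**Figure D2:**
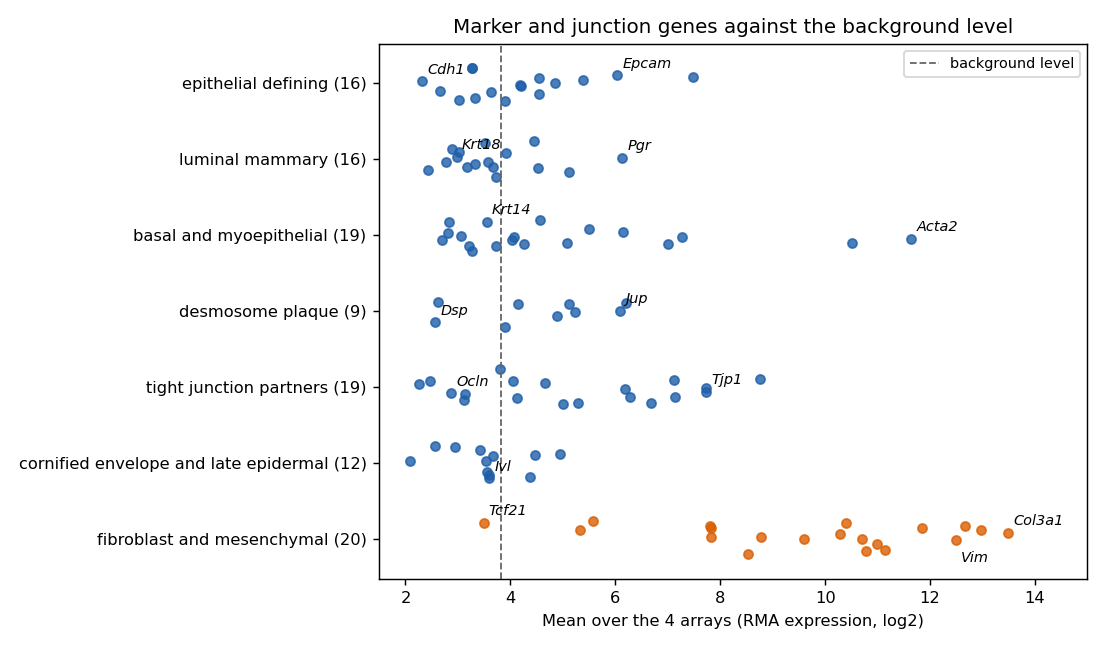
Mean log2 RMA expression over the 4 arrays of each measured gene of 7 marker and junction lists (1 point per gene, shifted up or down at random within its row for clarity), with a dashed line at the background level of 3.83. Of the fibroblast and mesenchymal genes 19 of 20 lie to the right of the line. So do 9 of 16 epithelial, 5 of 16 luminal and 11 of 19 basal and myoepithelial genes, and Cdh1, Dsp and Ocln lie to its left. Of all genes of the array, 64.5% have a mean above this level.

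Between the clones, only Krt7 of the 70 genes passed the test after adjustment. Krt7, a type II keratin of ducts and luminal cells, read 4.41 with Deaf-1 and 4.10 in the control of clone E1, and 2.92 with Deaf-1 and 2.86 in the control of clone C1. It was above background in E1 and below it in C1 with either retrovirus. The difference E1 minus C1 was 1.36 (2.57-fold, SE 0.15, n = 2 arrays each), with an adjusted p of 0.0122 by limma over 45037 probe sets. Both C1 values lay within the background, so the level of Krt7 in C1 has only an upper bound. The p measures the spread between the 2 arrays of a clone and not between clones of a kind. With the retrovirus as a block the adjusted p was 0.089, and with any 1 of the 4 arrays left out it was 0.11 to 0.261.

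At an adjusted p under 0.05 Krt7 was 1 of 70 genes called (1.43%), where 5.12% of all probe sets and 6.76% of all genes were called. At an unadjusted p under 0.01 Cldn12 joined it, and 2 of 70 (2.86%) stood against 9.65% of probe sets and 12.3% of all genes. Cldn12 was lower in E1 by limma (E1 minus C1 -0.63, SE 0.15), with an adjusted p of 0.081 that missed the threshold, and its second probe set gave -0.74 with an adjusted p of 0.0781. An unadjusted p under 0.05 was reached by 9 genes (12.9%), against 19.9% of probe sets and 24.5% of all genes. Beside Krt7 and Cldn12 these were Krt8 (0.41), Krt80 (0.63), Cldn15 (0.50), Dsc3 (0.47), Krt12 (0.43), Krt13 (0.45) and Krt17 (0.38), given as differences E1 minus C1. None of them passed after adjustment by limma, and Dsc3, Krt12, Krt13 and Krt17 were below background on every array. Further probe sets, all below background, gave smaller differences for Dsc3 (-0.051), Krt17 (0.14) and Krt8 (0.24 and 0.21). For Krt13 they gave 0.011 and 0.58, and for Krt12 0.57, the last with an unadjusted p of 0.0037 by limma (adjusted p 0.0607). With any probe set of a gene counted, 3 genes thus had an unadjusted p under 0.01. The difference of Krt80 was 0.35 without the array of C1 with Deaf-1, and that of Cldn15 was 0.30 without the C1 control. At each of these thresholds the share of the 70 genes called was below that of all probe sets and that of all genes.

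In direction most differences were small and on the side of E1. Over the 70 genes the median of E1 minus C1 was 0.11, with 51 above and 19 below 0, while over all probe sets it was 0.0045. The arrays of the 2 clones did not overlap for 22 genes (31.4%), of which 21 were higher in E1 and only Cldn12 lower. They did not overlap for 47.1% of all probe sets and 51.8% of all genes. Of these 22 genes 16 had means at or below background.

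Markers of several cell types also differed between the clones at an adjusted p under 0.05 by limma. Some were higher in E1, as Krt7 was, and others were lower. This threshold was passed by 6.76% of all genes and 5.12% of all probe sets. Of the adipocyte list Fabp4 (7.40, E1 minus C1) and Pparg (3.53) were higher in E1. Of the 20 fibroblast and mesenchymal genes 5 were higher in E1 and 4 lower, with Col6a3, a collagen chain, at 2.25 and Lum, lumican, at -2.82. Lum was below background in E1 with Deaf-1 (3.57). Besides Krt7, the luminal list held 2 genes that were lower in E1, the hormone receptors Pgr (-2.41) and Esr1 (-1.05), and the basal and myoepithelial list 3, the smooth muscle genes Cnn1 (-1.51) and Tagln (-0.65) and P-cadherin, Cdh3 (-0.97). Luminal genes thus lay on both sides. Of the 16 epithelial genes 1 passed, Cd24a, which was lower in E1 (-0.97). Also lower were the adhesion molecule F11r (-0.84), 1 of 19 tight junction partners, and the tetraspanin Cd151 (-1.74), 1 of 8 hemidesmosome genes. Counts of 1 of 16 and 1 of 19 are near the 6.76% of all genes. Among other intermediate filament genes Vim was higher in E1 (0.62), and the neuronal Ina (-0.85) and Nefm (-0.80) were lower. Nefm lay below background on every array, at 2.47 to 3.40. None of the endothelial, leukocyte, desmosome plaque or cornified envelope genes passed. The part of cell identity in the difference of Krt7 was not tested.

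**Figure D3:**
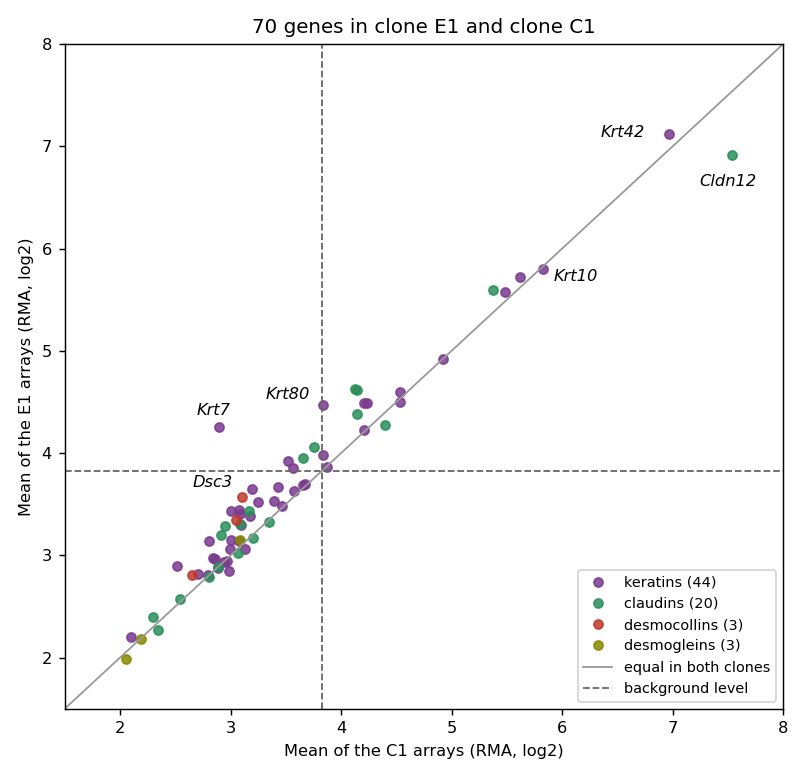
Mean log2 RMA expression of the 70 genes over the 2 E1 arrays (vertical axis) and the 2 C1 arrays (horizontal axis), coloured by family, with the line of equal values and the background level of 3.83 on both axes. Krt7 stands above the line of equal values, at background in C1 and above it in E1, Cldn12 stands below it, and most other genes lie in the background corner at the lower left.

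The promoters shown are those of Krt7 and Cldn12 and of the luminal pair Krt8 and Krt18, which was at or near background. Krt7 and Cldn12 were the 2 genes whose chosen probe sets had a p under 0.01 by limma between the clones. Each window holds 280 bases of the reference genome (RefSeq, GRCm38.p6), 250 before and 30 after the annotated start, 5′ to 3′ on the strand of the gene. Capitals mark TTCG or its reverse complement CGAA, the core of sites described for DEAF1, and TATAAA or its reverse complement TTTATA, the letters of the TATA box. Overlapping matches were both counted.
Krt7, chr15:101412153-101412432, plus strand: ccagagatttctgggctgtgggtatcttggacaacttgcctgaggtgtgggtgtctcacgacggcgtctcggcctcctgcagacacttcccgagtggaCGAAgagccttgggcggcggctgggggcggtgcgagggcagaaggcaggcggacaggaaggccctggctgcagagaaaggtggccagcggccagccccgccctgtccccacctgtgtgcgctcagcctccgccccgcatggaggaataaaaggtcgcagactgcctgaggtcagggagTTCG
Krt8, chr15:102004313-102004592, minus strand: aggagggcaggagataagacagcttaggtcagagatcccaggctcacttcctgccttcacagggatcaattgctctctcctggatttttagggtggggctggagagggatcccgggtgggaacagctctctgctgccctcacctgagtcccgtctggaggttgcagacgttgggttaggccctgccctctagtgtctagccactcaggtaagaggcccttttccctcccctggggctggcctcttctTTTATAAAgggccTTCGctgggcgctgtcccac
Krt18, chr15:102027966-102028245, plus strand: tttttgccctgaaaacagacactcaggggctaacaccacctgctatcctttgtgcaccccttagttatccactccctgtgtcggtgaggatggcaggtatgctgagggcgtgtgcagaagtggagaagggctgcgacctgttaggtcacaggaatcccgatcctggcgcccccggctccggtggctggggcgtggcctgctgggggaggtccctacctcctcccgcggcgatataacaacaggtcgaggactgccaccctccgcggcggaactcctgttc
Cldn12, chr5:5514947-5515226, minus strand, the first of 3 starts listed: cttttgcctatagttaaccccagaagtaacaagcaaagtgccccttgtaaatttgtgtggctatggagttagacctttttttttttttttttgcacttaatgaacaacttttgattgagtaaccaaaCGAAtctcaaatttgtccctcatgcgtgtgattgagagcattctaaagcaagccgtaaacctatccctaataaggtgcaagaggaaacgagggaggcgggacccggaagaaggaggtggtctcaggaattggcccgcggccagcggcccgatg

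Krt7 had 2 matches to TTCG and none to TATAAA, Krt8 had 1 and 2, Cldn12 had 1 and 0, and Krt18 had neither. The 2 overlapping matches of Krt8 to TATAAA began at -3 and -1 from the annotated start and so crossed it. Promoter windows were listed for 47 of the 70 genes, 31 keratins and 16 claudins, with 56 windows in all. The desmosomal cadherins were not among them. TTCG on either strand was found in 53.6% of these windows, against 42.4% of 32851 windows of all genes, and TATAAA in 32.1%, against 13.1% of all. The 2 families differed in the second motif. It was found in 17 of 32 keratin windows (53.1%) and in 1 of 24 claudin windows (4.17%). The median number of CG dinucleotides was 6 in the windows of these genes and 6 in all windows. These matches describe the letters of the windows, and no binding of Deaf-1 was measured here.

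With Deaf-1 none of the 70 genes passed a threshold. At an unadjusted p under 0.01 by limma 0 of 70 were called, where 0.0111% of probe sets and 0.0275% of all genes were. At a p under 0.05 again 0 were called, where 0.433% of probe sets and 0.407% of all genes were. No probe set of the array had an adjusted p under 0.05. The Deaf-1 and control arrays did not overlap for 13 genes (18.6%), a share near those of all probe sets (18.9%) and of all genes (16.1%). Krt26, a type I keratin of the inner root sheath below background on all arrays, had the largest moderated t in size (difference -0.38, SE 0.16, moderated t of limma -2.42).

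Of genes above background, Cldn14 had the largest difference of means in size, 0.43 (SE 0.34), which came from the array of E1 with Deaf-1 at 5.07, with the other 3 arrays between 4.13 and 4.17. Krt18, below background, had 0.42 (SE 0.26), again with the array of E1 with Deaf-1 above the other 3. Without that array the difference was -0.035 for Cldn14 and 0.095 for Krt18. For Cldn12 the mean difference was -0.13 (SE 0.34), for Krt42 0.16 (SE 0.26) and for Krt10 -0.17 (SE 0.24). For Cldn12, Krt42 and Krt10 the SE, which rests on the spread between the clones, was larger than the difference itself.

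Most of the genes shifted in opposite directions in the 2 clones. The median change with Deaf-1 over the 70 genes was 0.20 in clone E1, where 55 (78.6%) were higher with Deaf-1, and -0.089 in clone C1, where 23 (32.9%) were. Over all probe sets the medians were 0.0024 in E1, where 50.4% were higher, and -0.011 in C1, where 47.3% were. In 48 genes (68.6%) the changes had opposite signs, against 58.9% of all probe sets. Of the 20 genes above background 17 changed in opposite directions, with medians of 0.36 in E1 and -0.10 in C1. The other 3 were higher in the Deaf-1 array of each clone: Krt5 (0.29 in E1 and 0.078 in C1), Krt83 (0.44 in E1 and 0.029 in C1) and Cldn22 (0.38 in E1 and 0.089 in C1). These values were not tested.

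Dim probe sets had medians of the same signs. Over the 44 olfactory receptor probe sets they were 0.12 in E1, where 65.9% were higher with Deaf-1, and -0.12 in C1, where 25% were. Over the 22634 probe sets with a mean at or below background they were 0.067 in E1 (61.9% higher) and -0.052 in C1 (39.9% higher), and over the 32651 with a mean under 6 they were 0.053 in E1 and -0.035 in C1. The median of the 70 genes was 3.50 in E1 with Deaf-1, 3.37 in the E1 control, 3.07 in C1 with Deaf-1 and 3.32 in the C1 control, and the number above background was 25, 20, 16 and 20 on these arrays in the same order. The median of all probe sets ran between 3.77 and 3.87. The part of these shifts of dim probe sets in the changes of single keratins and claudins was not tested.

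**Figure D4:**
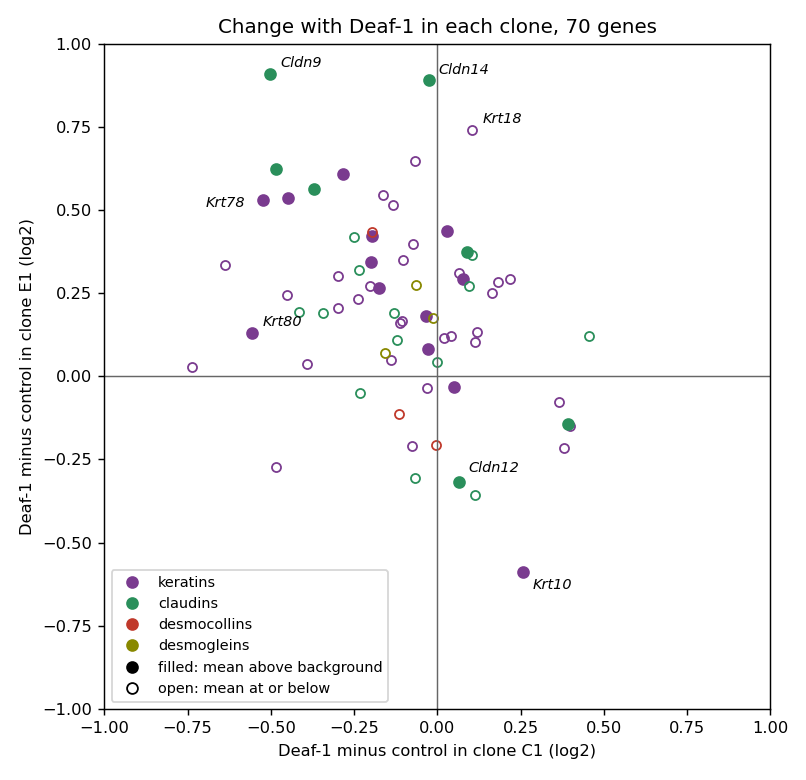
Change with Deaf-1 (Deaf-1 minus control, log2) of the 70 genes in clone E1 (vertical axis) and clone C1 (horizontal axis), coloured by family, with filled symbols for genes with a mean above background. Most points lie in the upper left, higher with Deaf-1 in E1 and lower in C1, and 3 of the 20 filled points, Krt5, Krt83 and Cldn22, lie in the upper right.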

How the data were processed

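Expression was measured on 4 Affymetrix mouse arrays, 1 per clone and retrovirus. The authors computed the deposited values with RMA, and the unit is log2 expression. The submitters' processing notes name RMA and limma, their versions are not given in the sources used here, and the paper's text names no normalization. Of 45101 probe sets 64 controls were left out, and 45037 were tested. Of these 34945 had 1 gene symbol, 932 several and 9160 none, and all 70 symbols of the genes described matched RefSeq unchanged. Arrays carry no read depth, and their number limits the precision.

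Clone E1 was compared with clone C1, and Deaf-1 with control, in limma 3.58.1 (R 4.3.3, functions lmFit and eBayes), two-sided, without trend or robust prior, with Benjamini-Hochberg adjustment over all 45037 probe sets. Differences are E1 minus C1 and Deaf-1 minus control. Call rules were an adjusted p under 0.05 and an unadjusted p under 0.01. The paper treats the clones as biological replicates, so clone was not in the model, although both retroviruses were put into the same clones. Arrays of 1 clone deviated together from their group means (correlation 0.54 across probe sets), and the block is an alternative. The fits were also run on simulated data, in which arrays of 1 clone did not deviate together. Those data therefore cannot show how the Deaf-1 fit behaves with such a deviation. Other steps used Python 3.11.15.

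Genes were named if above background on at least 1 array, if they mark mammary, simple or stratified epithelium, or if past a call rule, and of other lists as up to 4 genes with the largest moderated t between the clones, of which the text gives only ones past an adjusted p under 0.05. List genes named for their level (among them Tjp1, Ocln, Acta2, Tcf21, Pgr, Esr1, Cd14, Aldh1a3 and those of the epithelial, endothelial, leukocyte and adipocyte lists), Krt1, Krt16, Krt12, Krt13, Krt26, Krt73, Krt75, Krt82, Krt86, Dsc1, Dsg1a and Dsg1b were chosen after their values were seen. The same holds for Krt25, Krt27, Krt28, Krt32, Krt35 and Krt36. The genes and lists were chosen with earlier results of these data known. Alternatives were the block, filters at the background level and at a mean of 6, and other normalizations and priors. Further ones were probe sets without _x_at, _s_at and _a_at names, any probe set of a gene, other background levels and each array left out.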

Additional observations from a re-analysis of the deposited data

Results flagged for a closer look

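For 5 genes above background the change with Deaf-1 was positive in clone E1 and negative in clone C1, each by at least 0.3 on the log2 scale, with 1 pair of arrays per clone. The difference between the clones was not tested. Cldn9 changed by 0.91 in E1 and by -0.50 in C1, a difference of 1.41. For Cldn5 the changes were 0.62 in E1 and -0.48 in C1, a difference of 1.11. Krt78 gave 0.53 in E1 and -0.52 in C1 (1.05 apart), Krt71 0.54 in E1 and -0.45 in C1 (0.98 apart) and Cldn3 0.56 in E1 and -0.37 in C1 (0.93 apart). All 5 changes run the way of the medians of the olfactory receptor probe sets, 0.12 in E1 and -0.12 in C1. That they are larger follows from the choice of changes of at least 0.3, so their size cannot be compared with those medians. Of the other 3 probe sets of Cldn3, 2 changed in opposite directions in the clones as well (0.68 in E1 and -0.20 in C1, and 0.39 in E1 and -0.029 in C1), and 1 was higher with Deaf-1 in both (0.14 in E1 and 0.44 in C1). The second probe set of Cldn9, below background, changed by 0.055 in E1 and by 0.12 in C1.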

How the results depend on the processing

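With 2 arrays in each group and 2 residual degrees of freedom, and with most of these genes at background, small differences could not be detected. The count of genes with an adjusted p under 0.05 between the clones, 1 by the fit described, was 0 with the replicate block (retrovirus), 0 with the filter at the background level, which removes Krt7 by its mean, 0 with both together, 0 without _x_at, _s_at and _a_at probe sets, of which the probe set of Krt7 is one, 0 to 0 with each array left out, and, once Cldn12 joined Krt7 under a prior with an intensity trend, 2. The count with a p under 0.01, 2 by the fit described, was 1 with the replicate block, 1 with either filter, 0 with the block and the background filter, and 1 to 5 with each array left out (5 without the E1 control, 1 without either Deaf-1 array). With the filter at a mean of 6, which removes Krt7, Cldn12 was the gene called in its place (adjusted p 0.0179 by limma). The causes were not tested beyond what a filter removes by its construction. Krt7 stayed higher in E1, by 1.21 to 1.52 with each array left out. For Deaf-1 no gene had a p under 0.01 under any alternative run, the replicate block included (0 of 70). With each array left out the Deaf-1 difference of Cldn14 ran between -0.035 and 0.90, that of Krt18 between 0.095 and 0.75, that of Cldn12 between -0.54 and 0.28, that of Krt42 between -0.14 and 0.46 and that of Krt10 between -0.39 and 0.059. The number of genes above background was 15 to 30 under the other definitions of background, against 20. Counts of CG dinucleotides, the probe sets with a mean under 6 or at or below background and the share of all genes above background were chosen after seeing the data.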
